A study of Mus musculus with 9 samples.

Results

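The adaptor proteins and kinases that carry the signal of Toll-like receptor 4 (TLR4) were followed here at the mRNA level in MH-S, a line of mouse alveolar macrophages. The set held 10 genes of the 14771 in the deposited gene table. They were taken by symbol, and all 10 were present and had enough counts to be tested, as did 11281 genes in all. The set was put together with results of these libraries known, from the values of SUR against LPS, in which Map3k8 was higher and Irak2 and Ticam1 were lower. That comparison is therefore described for these genes without a test.

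RNA was sequenced from 9 libraries in 3 groups of 3. Per the treatment protocol, SUR cells received 200 µM suramin, a polyanionic drug that blocks purinergic receptors, together with 1 µg/ml lipopolysaccharide (LPS) for 4 h, although the sample labels name suramin without LPS. LPS cells received 1 µg/ml LPS for 4 h, and CON cells received culture medium. On this reading no group received suramin alone. All groups are 1 transformed cell line, and no label says that the replicates were separate cultures, so the p-values reflect the spread among these libraries alone, which may be technical.

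LPS, a component of the outer membrane of Gram-negative bacteria, is bound by TLR4 with its co-receptors on macrophages. The receptor then recruits adaptors through shared TIR domains. At the plasma membrane the bridging adaptor Tirap brings in Myd88, which assembles Irak4 with Irak1 or Irak2 and hands the signal to the ubiquitin ligase Traf6 and on to NF-kappaB and MAP kinases. From endosomes the bridging adaptor Ticam2 (TRAM) brings in Ticam1 (TRIF), which activates the kinase Tbk1 and through it interferon-beta transcription. Irak3 (IRAK-M) is a relative of the IRAK kinases that restrains the pathway in macrophages. Map3k8 (TPL2) is the kinase that activates the MEK kinases downstream of TLR4, and it is held in check by the NF-kappaB precursor encoded by Nfkb1.

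Library totals ran from 15729398 to 16675243 counts, and the 10 genes had between 67 and 1825 counts in a library. The macrophage markers were plain: 7 of 7 were tested, with a summed level of 4740 to 7130 CPM in SUR, 5090 to 7630 CPM in LPS and 4900 to 6980 CPM in CON. Of 8 alveolar macrophage markers, 3 (Itgax, Mrc1 and Fabp4) had counts enough to test. Siglecf, Marco, Pparg and Chil3 were each at or below 0.576 CPM in every library. Epithelial markers summed to at most 0.183 CPM in any library, lymphocyte and neutrophil markers to at most 0.244 CPM, and fibroblast and endothelial markers to at most 1.15 CPM. In the first principal component of log2 CPM (52% of the variance) the LPS libraries scored 35.1 to 39.7. CON 1 scored -9.9 there, among the SUR libraries (-14.7 to -6.15), whereas CON 2 and CON 3 scored -29.2 and -38.8. In the second principal component (27.4% of the variance) the libraries numbered 1 of every group stood apart from those numbered 2 and 3. Values without the libraries numbered 1 are given where they matter.

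The promoters of Myd88, Irak2 and Ticam1 are shown because these were the genes of the set with the largest rises under LPS. The windows run from 250 bases before to 50 bases after the annotated start and come from RefSeq (GRCm38.p6), 5′ to 3′ on the strand of the gene. Those of Myd88 (chr9:119339969-119340268, minus strand), Irak2 (chr6:113638217-113638516, plus strand) and Ticam1 (chr17:56276718-56277017, minus strand) read as follows, with capitals marking a motif match.
Myd88: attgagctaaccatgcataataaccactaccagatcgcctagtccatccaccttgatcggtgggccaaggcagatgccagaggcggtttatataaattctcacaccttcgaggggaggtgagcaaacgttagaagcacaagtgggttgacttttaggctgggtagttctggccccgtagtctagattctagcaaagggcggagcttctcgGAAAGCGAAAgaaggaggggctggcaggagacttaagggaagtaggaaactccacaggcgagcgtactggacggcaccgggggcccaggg
Irak2: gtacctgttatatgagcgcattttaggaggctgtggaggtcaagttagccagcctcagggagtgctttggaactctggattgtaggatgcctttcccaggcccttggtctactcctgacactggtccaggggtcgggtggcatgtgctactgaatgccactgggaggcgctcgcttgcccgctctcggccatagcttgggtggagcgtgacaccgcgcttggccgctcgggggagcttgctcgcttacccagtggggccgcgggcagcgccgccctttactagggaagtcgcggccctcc
Ticam1: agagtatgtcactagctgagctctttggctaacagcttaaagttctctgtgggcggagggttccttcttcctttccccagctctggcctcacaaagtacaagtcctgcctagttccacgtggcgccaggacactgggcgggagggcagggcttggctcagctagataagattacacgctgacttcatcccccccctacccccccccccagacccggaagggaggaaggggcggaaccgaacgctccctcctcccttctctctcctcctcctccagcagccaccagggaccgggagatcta

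Promoter windows were searched for 8 of the 10 genes (10 windows, since Tirap and Irak3 have 2 each). Member windows on chromosome 18, where Map3k8 and Ticam2 lie, were left out, so nothing is said of their promoters. Both strands were searched for an NF-kappaB motif (GGG, 2 free bases, TT, 1 free base, CC), an interferon-stimulated response element (ISRE, GAAA on either side of 2 free bases), an AP-1 motif (TGANTCA) and a cAMP response element (TGACGTCA), none of which overlapped another in these windows. The only match was an ISRE in Myd88, GAAAGCGAAA, starting 40 bases before the annotated start. Over all 32851 windows of that length the ISRE letters were found in 3.44%, the NF-kappaB letters in 4.79%, the AP-1 letters in 7.81% and the cAMP response element in 1.79%. These are matches of letters in a short window and show no binding.

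Per unit of length, Myd88 was the most abundant of the 10 mRNAs in every group. In TPM, reads scaled for transcript length and library depth, it averaged 74.8 ± 5.94 in SUR, 94.1 ± 6.37 in LPS and 62.8 ± 9.61 in CON (SD, n = 3 each). Tbk1 came next in SUR (39.3 ± 5.91 TPM) and CON (37.9 ± 4.72 TPM). In LPS, Irak2 (49.5 ± 5.83 TPM) and Tbk1 (43.7 ± 3.23 TPM) followed with overlapping ranges. Irak3, Tirap and Ticam2 lay low in all groups, between 4.73 and 11.8 TPM in single libraries.

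Irak2 and Map3k8 held different places in the groups. Irak2 ranked 4 in SUR (19.6 ± 1.68 TPM), 2 in LPS and 6 in CON (13.7 ± 2.99 TPM), and in each its range overlapped that of the gene ranked next. Map3k8 in CON had the lowest level of the set, at 3.99 ± 1.70 TPM, below the range of Irak3, its nearest neighbour. In LPS it was also lowest, at 4.88 ± 0.510 TPM, overlapping Ticam2 just above it. In SUR it stood at 13.9 ± 2.19 TPM, seventh in order, overlapping Traf6 above it and above the ranges of Tirap, Ticam2 and Irak3.

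The comparison of LPS with CON asked which parts of the signalling chain LPS itself changed. Irak2, Ticam1, Myd88, Irak3 and Traf6 rose, and Tirap and Ticam2 fell, so that 7 of the 10 genes passed an adjusted p of 0.05 (quasi-likelihood test in edgeR, Benjamini-Hochberg adjusted over all 11281 genes). Over all tested genes 18.3% passed, 8.98% as rises and 9.36% as falls. The LPS libraries also entered the choice of the set, for which Irak2 and Ticam1 were lower in SUR than in LPS. The rises of Irak2 and Ticam1, and the count of 7 of 10 that includes them, are therefore not independent of that choice. The largest change was the 3.93-fold rise of Irak2. Ticam1 rose 2.08-fold and Myd88 1.63-fold, and the other 4 changes were 1.30- to 1.45-fold in either direction. In bulk RNA, a change in the share of cells that express a gene and a change in RNA per cell cannot be told apart.

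Among the adaptors, Myd88, the hub of its arm, stood at 116, 107 and 108 CPM (counts scaled to the TMM-adjusted library depth, not to length) in LPS libraries 1 to 3, against 77.2, 61.2 and 64.3 CPM in CON. All LPS libraries lay above all CON libraries. The log2 fold change was 0.70 (SE 0.0927, adjusted p = 0.000936, edgeR). Ticam1, the adaptor of the TRIF arm, stood at 72, 64.9 and 64.4 CPM in LPS, against 38.4, 26.1 and 32.2 CPM in CON. Here too the groups did not overlap, and the log2 fold change was 1.06 (SE 0.137, adjusted p = 0.000863).

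The bridging adaptors went the other way. Tirap, which ties Myd88 to the membrane, stood at 20, 22.2 and 23.8 CPM in LPS, against 32.9, 25.6 and 31.1 CPM in CON. Its highest LPS library lay just below its lowest CON library, and the log2 fold change was -0.44 (SE 0.113, adjusted p = 0.0262). Ticam2, which ties Ticam1 to the receptor, stood at 14.5, 10.0 and 11.2 CPM in LPS, against 17.4, 16.1 and 18.5 CPM in CON. Its groups did not overlap either (log2 fold change -0.54, SE 0.137, adjusted p = 0.0247). In each arm the bridging adaptor fell and the signalling adaptor rose.

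Of the IRAK kinases, Irak2 showed the largest difference of the whole set. It stood at 85.8, 105 and 113 CPM in LPS, against 31.3, 24.3 and 21.5 CPM in CON. Every LPS library lay far above every CON library, and the log2 fold change was 1.97 (SE 0.153, adjusted p = 7.06e-05). Irak3, the inhibitory relative, stood at 18.3, 20.8 and 23.2 CPM in LPS, against 16.9, 14.5 and 15.8 CPM in CON. Its groups were separate by a narrow margin, and the log2 fold change was 0.40 (SE 0.112, adjusted p = 0.0383).

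Irak4, the kinase that starts the Myd88 cascade, overlapped between the groups, at 21.2, 25.3 and 27.5 CPM in LPS against 22.5, 29.3 and 32.8 CPM in CON (log2 fold change -0.19, adjusted p = 0.568). Pairing the libraries by number gave log2 differences of -0.09, -0.21 and -0.25, and it passed with the replicate number as a block (adjusted p = 0.0251). Irak1, a kinase outside the set that acts beside Irak2, averaged 127 ± 1.56 CPM in LPS and 130 ± 2.83 CPM in CON (log2 fold change -0.03, adjusted p = 0.823). Per length, the ratio of Irak1 to Irak2 mRNA (in TPM) was 1.38, 1.1 and 1.04 in LPS, against 3.72, 4.77 and 5.73 in CON.

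Downstream, Traf6 stood at 75.1, 67.2 and 63.5 CPM in LPS, against 60.5, 51.7 and 46.4 CPM in CON (log2 fold change 0.37, SE 0.109, adjusted p = 0.0441). The groups did not overlap, and Traf6 was higher in LPS within each number by 0.31, 0.38 and 0.45. Tbk1, the kinase of the TRIF arm, stood at 89.5, 80.4 and 83.5 CPM in LPS, against 75.3, 62.8 and 64.8 CPM in CON. Its groups did not overlap either, with a log2 fold change of 0.32 and an adjusted p of 0.0679, which became 0.000202 with the replicate block.

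Map3k8, the kinase upstream of MEK, stood at 7.48, 6.94 and 8.58 CPM in LPS, against 8.41, 4.87 and 3.99 CPM in CON, and CON 1 lay within the LPS values. The log2 fold change was 0.41 (SE 0.268, adjusted p = 0.381), and within numbers 1, 2 and 3 the difference was -0.17, 0.50 and 1.08. Without CON 1 the log2 fold change was 0.80 (adjusted p = 0.0276), and without all libraries numbered 1 it was 0.82 (adjusted p = 0.00273). Whether Map3k8 was called in LPS against CON thus turned on that library.

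The libraries of LPS and CON did not overlap for 8 of the 10 genes, against 32% of all tested genes. The LPS libraries entered the choice of the set. Neither this count nor the counts of calls below can therefore be read as an excess over all genes. The calls of Irak2, Ticam1 and Myd88 held under all 18 alternative settings (adjusted p at most 0.00624). Those of Traf6, Irak3, Tirap and Ticam2 were each lost in some settings: Traf6 without CON 2, CON 3, SUR 2, SUR 3 or any LPS library (up to 0.152), Irak3 without CON 2, CON 3, LPS 2, LPS 3, SUR 2 or SUR 3 (up to 0.134), Tirap without CON 1, CON 3, LPS 1 or LPS 2 (up to 0.0925), and Ticam2 without CON 1, CON 3, LPS 2 or LPS 3 (up to 0.0917). The count of calls fell to 3 without CON 3 or LPS 2 and to 4 without LPS 3. With the block 6 of the 10 rose and 3 fell, where it called 41.8% of all genes, 20.1% as rises and 21.7% as falls. Without the libraries numbered 1 the counts were 7 and 1, against 30.2% of all genes, 15.7% as rises and 14.4% as falls. There Map3k8 and Tbk1 gained a call and Tirap lost its call (log2 fold change -0.29, adjusted p = 0.0722). With only LPS and CON in the fit, Tirap, Ticam2, Irak3 and Traf6 all lost theirs (adjusted p from 0.0634 to 0.0701). No alternative turned the direction of any of the 10.

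**Figure D1:**
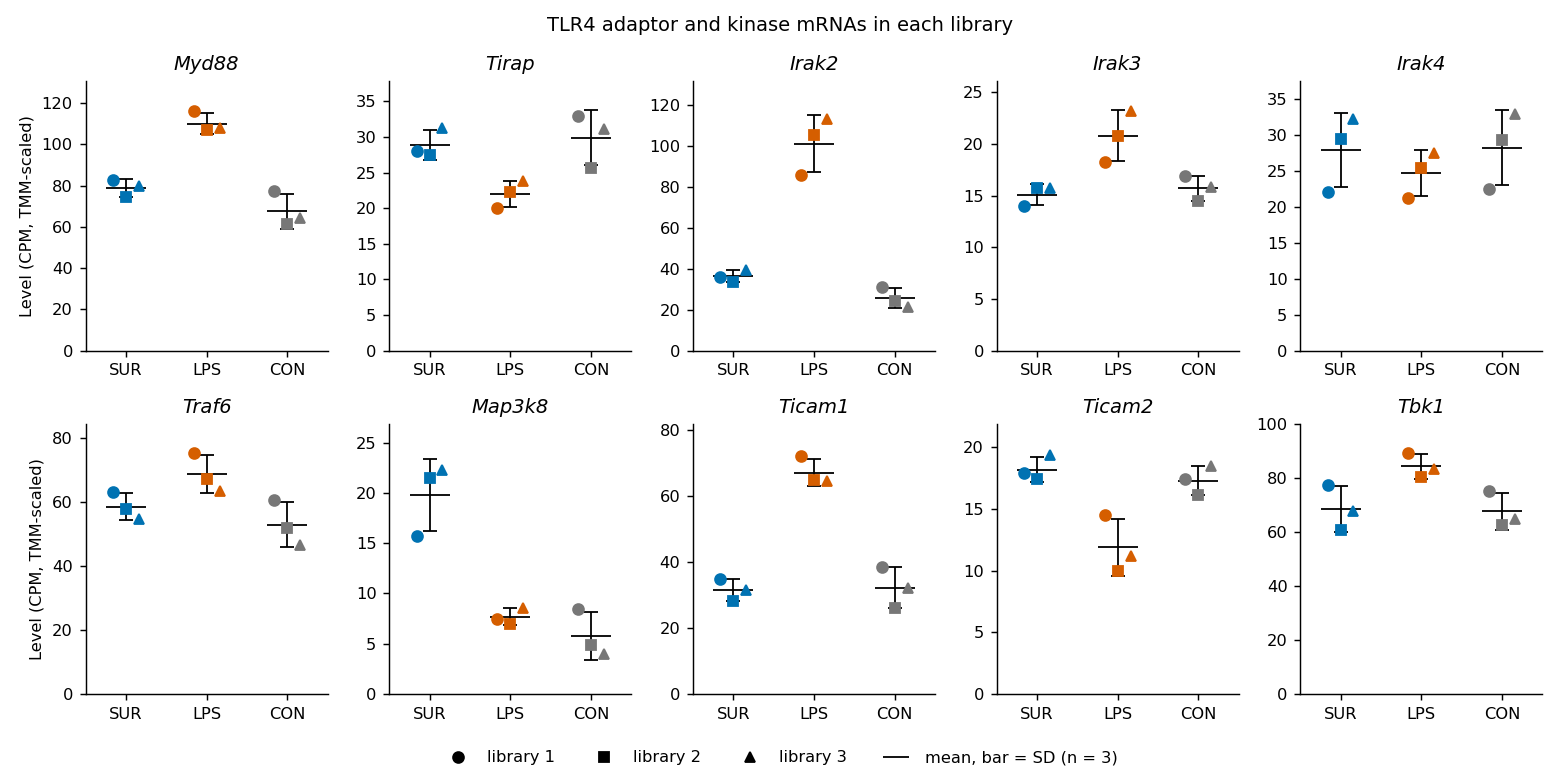
Level of each gene (vertical axis, CPM with TMM scaling, from 0) in the SUR, LPS and CON groups, with a point per library shaped by its number and a line and bar for mean and SD (n = 3). Irak2, Ticam1 and Myd88 are highest in LPS, Tirap and Ticam2 lowest in LPS, and Map3k8 is high in SUR, at 15.7 to 22.3 CPM.

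SUR was set against LPS to see what differed with suramin present. The set was chosen on this contrast, so the values are given as a description. Irak2 stood at 36.0, 33.5 and 39.3 CPM in SUR, against 85.8, 105 and 113 CPM in LPS, a log2 difference of -1.48 (SE 0.15). The highest SUR library lay far below the lowest LPS library. Ticam1 stood at 34.7, 28.3 and 31.5 CPM in SUR, against 72, 64.9 and 64.4 CPM in LPS, a difference of -1.09 (SE 0.137), again without overlap.

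Map3k8 differed in the opposite direction, at 15.7, 21.5 and 22.3 CPM in SUR, against 7.48, 6.94 and 8.58 CPM in LPS. The lowest SUR library lay far above the highest LPS library, and the fitted log2 difference was 1.37 (SE 0.258), a 2.59-fold higher level. Within numbers 1, 2 and 3 it was 1.06, 1.61 and 1.37.

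The other 7 genes differed less. In SUR, Myd88 ranged from 74.3 to 82.8 CPM, Tirap from 27.4 to 31.3 CPM, Irak3 from 14 to 15.7 CPM and Irak4 from 22.1 to 32.1 CPM. Traf6 ranged from 54.6 to 63 CPM, Ticam2 from 17.4 to 19.4 CPM and Tbk1 from 60.7 to 77.5 CPM in SUR. Myd88 was lower in SUR than in LPS by 0.48 on the log2 scale, Irak3 by 0.45, Tbk1 by 0.30 and Traf6 by 0.23. Ticam2 was higher in SUR by 0.62, Tirap by 0.39 and Irak4 by 0.18. The SUR and LPS libraries did not overlap for 9 of the 10 genes, Irak4 being the exception. Of all tested genes 34.9% did not overlap. Because the set was chosen on this contrast, its count cannot be read as an excess over that share. Under the 18 alternatives no direction of these 10 differences turned. The Irak4 difference ran from 0.06 to 0.39 and the Traf6 difference from -0.30 to -0.09.

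**Figure D2:**
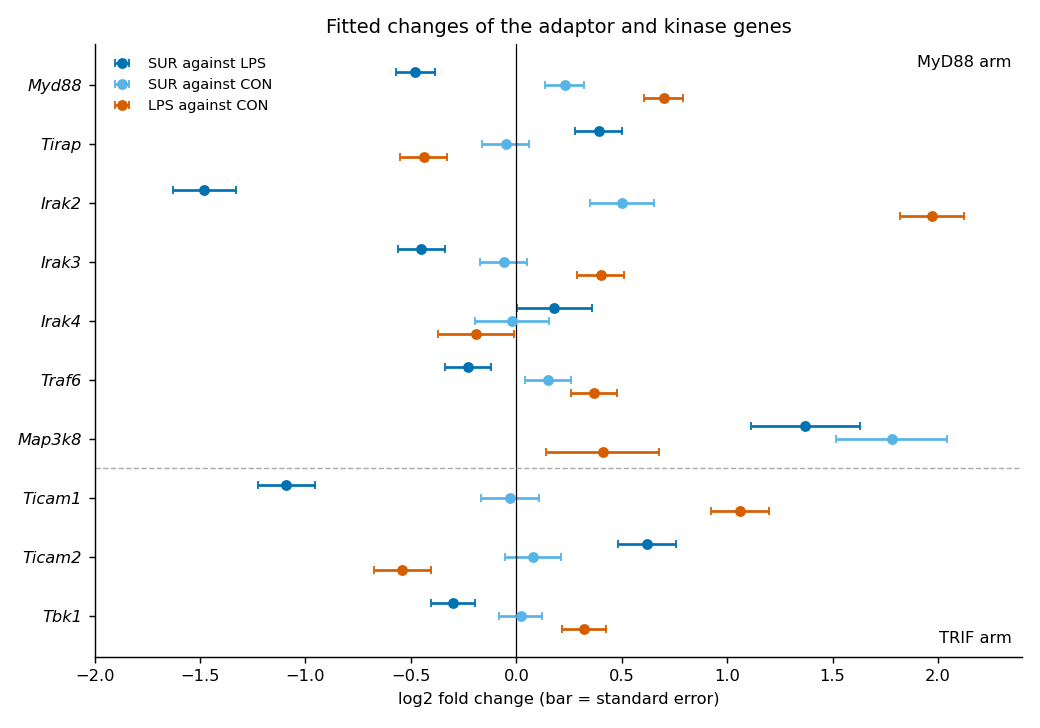
Fitted log2 fold changes (horizontal axis, bar = standard error) of the 10 genes in SUR against LPS, SUR against CON and LPS against CON, with the MyD88 arm above the dashed line and the TRIF arm below it. Map3k8 is the gene with positive values in all 3 comparisons, 1.37, 1.78 and 0.41, whereas Irak2 and Ticam1 have large negative values in SUR against LPS.

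The comparison of SUR with CON asked where the chain stood with both agents relative to medium. The 3 comparisons share their libraries pairwise, so they are not independent of each other. The choice of the set used the SUR libraries, in which Map3k8 was higher than in LPS. A call of Map3k8 here thus rests in part on values that chose it. Of the 10 genes 1, Map3k8, rose and 0 fell (edgeR; at an unadjusted p under 0.05, 3 were higher and 0 lower, and DESeq2 and limma-voom also called Map3k8 alone). Over all tested genes 0.425% were called in either direction, 0.39% as rises and 0.0355% as falls. The SUR and CON libraries did not overlap for 2 of the 10 genes, Map3k8 and Irak2, both higher in SUR, against 15% of all genes and 8.35% that were higher.

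Map3k8 stood at 15.7, 21.5 and 22.3 CPM in SUR, against 8.41, 4.87 and 3.99 CPM in CON. All SUR libraries lay above all CON libraries, and the log2 fold change was 1.78 (SE 0.263, adjusted p = 0.0375), a 3.44-fold rise. The call was lost without CON 2, CON 3, SUR 2, SUR 3 or any LPS library (adjusted p up to 0.217), where the log2 fold change was 1.58 to 1.78, and when only SUR and CON were fitted (adjusted p = 0.14). Within numbers 1, 2 and 3 the difference was 0.90, 2.11 and 2.45, and with the replicate block the adjusted p was 0.000908.

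Irak2 averaged 36.3 ± 2.89 CPM in SUR and 25.7 ± 5.08 CPM in CON, and the groups did not overlap (log2 fold change 0.50, SE 0.151, adjusted p = 0.289). With the replicate block it was called at an adjusted p of 0.048, and without the libraries numbered 1 at 0.00145. Myd88 averaged 79.0 ± 4.32 CPM in SUR and 67.6 ± 8.48 CPM in CON with 1 library of SUR, SUR 2, below CON 1 (log2 fold change 0.23, adjusted p = 0.489, and 0.0155 with the block). The block thus raised the count of calls to 3, all rises, where it called 11.5% of all genes, 7.37% as rises and 4.18% as falls. Without the libraries numbered 1 the same 3 genes were called, against 5.19% of all genes, 4.44% as rises and 0.742% as falls.

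For the TRIF arm the values in SUR and CON were close. Ticam1 averaged 31.5 ± 3.22 CPM in SUR and 32.2 ± 6.18 CPM in CON (log2 fold change -0.03, SE 0.138). Ticam2 averaged 18.2 ± 0.995 CPM in SUR and 17.3 ± 1.20 CPM in CON (0.08, SE 0.134), and Tbk1 68.7 ± 8.46 CPM in SUR and 67.7 ± 6.70 CPM in CON (0.02, SE 0.104). Each group pair overlapped, with adjusted p-values from 0.989 to 0.999, or 0.647 to 0.829 with the block. Tirap, Irak3, Irak4 and Traf6 of the MyD88 arm overlapped as well, with log2 fold changes between -0.06 and 0.15.

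By arm, in LPS against CON 4 of 7 genes of the MyD88 arm rose and 1 fell (median log2 fold change 0.40), and 1 of 3 of the TRIF arm rose and 1 fell (median 0.32). Of all tested genes 8.98% rose and 9.36% fell, with a median of -0.009. In SUR against LPS the medians were -0.23 for the MyD88 arm and -0.30 for the TRIF arm, beside -0.006 for all genes. The set was chosen on that contrast, so its distance from all genes there is no test. In SUR against CON the medians were 0.15 and 0.02, beside -0.009. With 7 and 3 genes these counts and medians describe the lists, and no difference between the arms was tested.

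The mixture of the adaptor mRNAs also differed by group. As a share of the summed TPM of Myd88, Tirap, Ticam1 and Ticam2, Ticam1 made up 17.9%, 16.3% and 16.7% in SUR, 26.3%, 26.0% and 25.5% in LPS, and 20.1%, 17.6% and 19.6% in CON. The LPS libraries were high and narrow, and SUR and CON overlapped. Tirap made up 8.30% to 9.50% in SUR, 4.21% to 5.39% in LPS and 9.88% to 10.9% in CON, and Ticam2 7.92% to 8.76% in SUR, 3.43% to 4.52% in LPS and 7.80% to 9.59% in CON. The share of Myd88 ranged from 65.1% to 66% in SUR, 65.0% to 65.4% in LPS and 60.0% to 63.2% in CON.

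As a ratio within each library, Ticam1 over its bridging partner Ticam2 averaged 2.02 ± 0.211 in SUR, 6.71 ± 0.882 in LPS and 2.17 ± 0.363 in CON (TPM over TPM, n = 3 each). Myd88 over Tirap averaged 7.34 ± 0.543 in SUR, 13.4 ± 1.77 in LPS and 6.07 ± 0.468 in CON. The ratio of Irak2 to the inhibitory Irak3 averaged 2.28 ± 0.233 in SUR, 4.62 ± 0.160 in LPS and 1.54 ± 0.244 in CON. The SUR libraries lay above the CON libraries without overlap for Irak2 over Irak3 (2.01 to 2.45 in SUR, 1.28 to 1.76 in CON) and for Myd88 over Tirap (6.85 to 7.93 in SUR, 5.53 to 6.38 in CON), and the groups overlapped for Ticam1 over Ticam2.

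**Figure D3:**
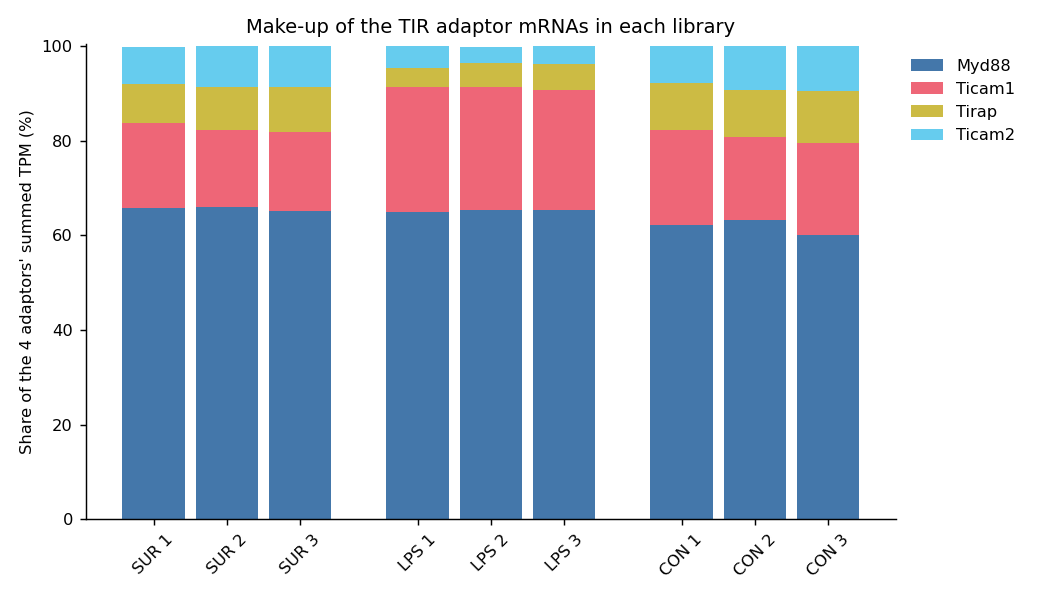
Share of each adaptor in the summed TPM of the 4 adaptor mRNAs (vertical axis, percent) for each library of SUR, LPS and CON. The Ticam1 segment is widest in the LPS libraries (25.5% to 26.3%) and the Tirap and Ticam2 segments narrowest there.

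The other genes of the pathway were followed with a list of 45 by role, of which 44 had counts enough to test; Lbp, with at most 3 counts in a library, did not. In LPS against CON 13 rose and 2 fell, and 29 were not called (20 and 5 with the replicate block; median log2 fold change 0.08). Of all tested genes 8.98% rose and 9.36% fell, or 20.1% and 21.7% with the block. Cd14, the co-receptor that hands LPS to TLR4, rose 7.68-fold, to 791 ± 32.1 CPM in LPS against 103 ± 46.6 CPM in CON. Tlr4 itself averaged 51.6 ± 2.17 CPM in LPS and 66.7 ± 9.93 CPM in CON (log2 fold change -0.37, adjusted p = 0.0756, and 0.000833 with the block).

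In the MyD88 branch, Peli1, a ubiquitin ligase that acts on IRAK kinases, rose 5.12-fold, while Tab1, a partner of the kinase TAK1, fell by 0.58 on the log2 scale. In the IKK complex the regulatory subunit gene Ikbkg fell by 0.61. In the TRIF branch Ikbke, the relative of Tbk1, rose 2.89-fold, Tank, a scaffold that binds both kinases, 2.13-fold and Traf3, a ubiquitin ligase of the branch, 1.44-fold. Among inhibitors Traf1 rose 27.6-fold, Tnfaip3 (the deubiquitinase A20) 14.3-fold and Tnip1, its binding partner, 4.56-fold.

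Of these 15 calls 10 held when any single library was left out. Tnfaip3 lost its call without CON 2 (adjusted p = 0.0637), and its log2 fold change, 3.84, was 5.48 without CON 1 and 3.31 without CON 3. That of Traf1, 4.79, was 5.57 without CON 1 and 4.32 without CON 3. The small rises of Ube2n and Ikbkb (0.23 and 0.31 on the log2 scale), Mapk8 (0.37) and Trafd1 (0.39) were each lost without 3 to 7 of the single libraries, and with upper-quartile or FPKM scaling.

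In SUR against LPS 12 of the 44 fell and 2 rose (21 and 7 with the block, which called 45.3% of all genes, 22.7% as falls and 22.6% as rises; without it 17.2% of all tested genes were called, 7.93% as falls and 9.29% as rises). Peli1 fell to 51.9 ± 5.09 CPM in SUR, against 240 ± 11 CPM in LPS (edgeR, adjusted p = 9.51e-05, log2 fold change -2.21 with SE 0.153). Traf1 fell to 4.41 ± 1.40 CPM in SUR, against 42.9 ± 8.15 CPM in LPS, and Cd14 to 229 ± 26.8 CPM in SUR, against 791 ± 32.1 CPM in LPS. In the TRIF branch Tank (log2 fold change -1.13), Ikbke (-1.07) and Traf3 (-0.24) fell. The 2 rises were of Ikbkg (0.57, adjusted p = 0.000724) and Tab1 (0.51, adjusted p = 0.00246).

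Of these 14 calls 8 held when any single library was left out. Ikbke and Traf3 were lost without LPS 2 or LPS 3, at adjusted p up to 0.0522 and 0.0612, and Ube2n, Ikbkb, Map2k4 and Trafd1, with changes no larger than 0.37, without 4 to 7 of the single libraries. Without LPS 2 the count was 8 and without LPS 3 it was 9. With upper-quartile scaling it was 7 falls and 4 rises, Tlr4 and Mapk9 being the added rises.

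Around Map3k8 itself, Nfkb1 was the only gene of its branch called, of 6 tested. Nfkb1, whose precursor protein binds and restrains the Map3k8 kinase, rose 2.10-fold in LPS against CON (264 ± 10.5 CPM in LPS, 126 ± 5.77 CPM in CON) and fell in SUR against LPS (126 ± 7.81 CPM in SUR; log2 fold change -1.07, adjusted p = 7.9e-05). Tnip2, encoding the ABIN2 protein of the same complex, was not called in any comparison, at 36.2 ± 0.998 CPM in SUR, 36.4 ± 1.63 CPM in LPS and 34.2 ± 0.640 CPM in CON. Map2k1 and Map2k2, which encode the MEK kinases, and the MAP kinase gene Mapk3 were not called in any comparison without the block. With it Map2k1 (log2 fold change -0.15, adjusted p = 0.0217), Map2k2 (-0.20, 0.00585) and Mapk3 (-0.13, 0.0333) fell in SUR against LPS. The ratio of Map3k8 to Nfkb1 mRNA (TPM over TPM) was 0.213, 0.302 and 0.281 in SUR, 0.0489, 0.0446 and 0.0520 in LPS, and 0.108, 0.0685 and 0.0519 in CON. Every SUR library lay above every other library. Map3k8 was chosen as higher in SUR than in LPS, so this separation rests in part on that choice. Against CON the ratio followed Map3k8, since Nfkb1 averaged 126 CPM in both groups. Over Tnip2 the ratio also separated SUR, at 0.324, 0.462 and 0.458, against 0.158, 0.149 and 0.170 in LPS and 0.189, 0.107 and 0.0873 in CON.

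In SUR against CON 0 of the 44 were called by edgeR, with 8 at an unadjusted p under 0.05, where 0.425% of all tested genes were called. DESeq2 called 3 (Cd14, Cyld and Traf3, all higher) and limma-voom 0. Without a call, Tnfaip3, Traf1 and Tnip1 were higher in every SUR library than in every CON library. So were Cd14, Traf3, Cyld and Tnip2 of the list, and 8.35% of all tested genes, while Map2k4 was lower without overlap. The log2 fold changes of Tnfaip3, Traf1 and Tnip1 were 2.39, 1.51 and 0.72 (edgeR, adjusted p = 0.346, 0.344 and 0.292). For Traf1 the margin was narrow, with SUR 1 at 2.82 CPM and CON 1 at 2.8 CPM. For Tnip1 SUR 1 stood at 69.9 CPM and CON 1 at 67.1 CPM. Of the 10 inhibitors 7 were higher and 3 lower in SUR than in CON. Tnfaip3 was not called in SUR against LPS either (log2 fold change -1.45, adjusted p = 0.258). With the replicate block, which called 11.5% of all genes (7.37% as rises and 4.18% as falls), 8 were called, 7 as rises, among them Cd14 (log2 fold change 1.15 and adjusted p = 0.13 without the block, 0.00471 with it) and Ikbke (0.46 and 0.636 without it, 0.00181 with it), and without CON 1 the count was 2.

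**Figure D4:**
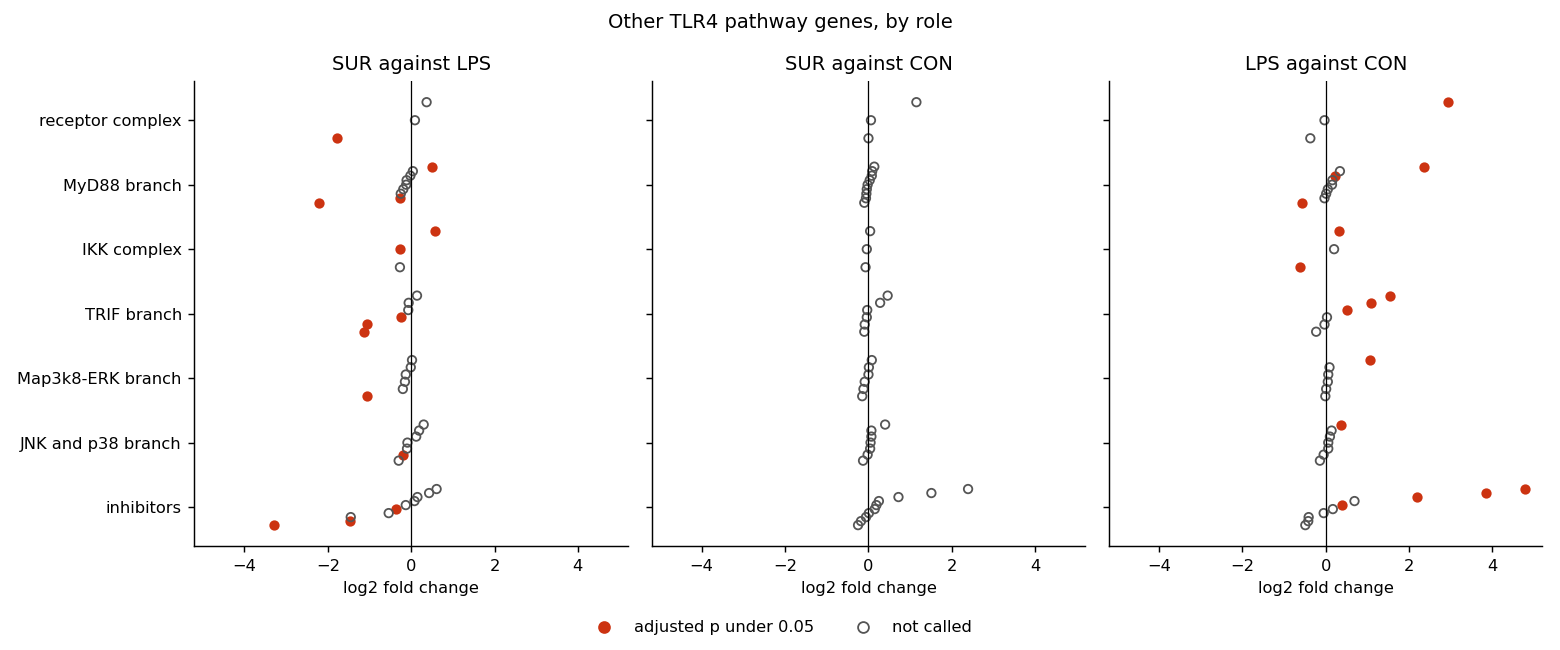
Log2 fold changes (horizontal axis) of the 44 other TLR4 pathway genes by role (vertical axis) in SUR against LPS, SUR against CON and LPS against CON; filled points passed an adjusted p of 0.05 and open points did not. The calls lie mostly right of 0 in LPS against CON (13 rises and 2 falls), left of 0 in SUR against LPS (2 rises and 12 falls) and there are 0 in SUR against CON.

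The genes closest in pattern were sought among those whose log2 CPM averaged 4 or more, by the root mean square difference of log2 CPM over the 9 libraries after centring each gene on its own mean. For Map3k8 they were Fos, an immediate-early transcription factor gene (0.267), Tagap, which encodes a GTPase-activating protein (0.383), and Klf2, a transcription factor gene (0.525), beside a spread of 0.826 of Map3k8 itself. Map3k8 averaged 3.25 in log2 CPM, below the limit of 4, so genes at its own level were not searched. Fos stood at 65.1, 66.5 and 79.8 CPM in SUR, 28.8, 30.9 and 25.5 CPM in LPS, and 25.3, 23.7 and 19.7 CPM in CON. For Irak2 they were Klf7 (0.104), Ripk2, the kinase of NOD receptors (0.137), and Slc2a6, a sugar transporter gene (0.143). For Ticam1 they were Fam53c (0.103), Baz1a (0.105) and the peptide and histidine transporter gene Slc15a3 (0.110). The distances are a description over libraries that share 3 treatments.

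The genes lie on 7 chromosomes (GRCm38, positions as in the deposited table). In the MyD88 arm these are Myd88 on chromosome 9 at 119335934 to 119340018, Tirap on chromosome 9 at 35175789 to 35201913, Irak2 on chromosome 6 at 113638467 to 113697053, Irak3 on chromosome 10 at 120141648 to 120202130, Irak4 on chromosome 15 at 94543613 to 94568317, Traf6 on chromosome 2 at 101678420 to 101706233 and Map3k8 on chromosome 18 at 4331325 to 4352953. In the TRIF arm Ticam1 is on chromosome 17 at 56269462 to 56276767, Ticam2 on chromosome 18 at 46558231 to 46574533 and Tbk1 on chromosome 10 at 121546455 to 121586794.

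Counting by strand is not stated, so reads of overlapping genes could not be told apart for Myd88 (Acaa1a and Slc22a14, the second with too few counts to test), Tirap (Srpr), Irak3 (Tmbim4), Irak4 (Twf1) and Ticam2 (Tmed7, on the same strand), whose values are uncertain to that extent. The log2 fold changes of these neighbours lay between -0.03 and 0.19 in LPS against CON and between -0.25 and 0.07 in SUR against LPS. Srpr alone was called among them, up in LPS against CON (0.19, adjusted p = 0.0467) and down in SUR against LPS (-0.21, adjusted p = 0.0371), the directions opposite to those of Tirap. In the same order, Tmbim4 (0.17 and -0.25), Acaa1a (0.06 and -0.05) and Twf1 (-0.03 and 0.07) had the signs of Irak3, Myd88 and Irak4. In LPS, Srpr averaged 332 CPM beside 22 CPM of Tirap, and Tmed7 191 CPM beside 11.9 CPM of Ticam2. Tmbim4 averaged 33.2 CPM there beside 20.8 CPM of Irak3. Whether reads of these neighbours entered the values was not tested. Irak2, Traf6, Map3k8, Ticam1 and Tbk1 overlap no other protein-coding gene in GENCODE M21, while Irak2, Tirap and Irak3 overlap annotated antisense RNAs whose reads could not be told apart from theirs.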

How the data were processed

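Total RNA of MH-S cells was made into libraries with an MGIEasy kit, per the labels' protocols. HISAT2 2.0.4 and GRCm38 (mm10) are named in the submitters' processing notes. Counter and annotation: not given in the sources used here. Expected counts, as deposited by the authors, are unnormalized estimates per gene (93.4% whole numbers, with no remainder) and were rounded. The deposited FPKM values and TPM values are scaled by the authors for length and depth, per the file headers; TPM served for levels between genes, FPKM for an alternative.

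Genes were kept by filterByExpr (11281 of 14771), scaled by TMM and tested with edgeR 4.0.16 (R 4.3.3), 9 libraries in 1 fit, a mean per group, Benjamini-Hochberg adjustment over all tested genes at 0.05. The dispersion is shared, so every library enters every p-value. SE came from the F statistic. Differences within replicate numbers used log2 CPM with a prior count of 2. Same-numbered libraries of different groups deviated together (correlations 0.43 to 0.80 over 9 pairs of libraries). For libraries of different number they ran from -0.64 to 0.44 (18 pairs), so the ranges meet. The libraries numbered 1 stand apart, and whether 2 and 3 are paired as numbered was not tested separately. The replicate block rests on this check of the data, and no label explains the pairing. Alternatives used DESeq2 1.42.0, limma 3.58.1 (on log2 of FPKM with 0.1 added, and voom), other scalings, no filter, the replicate block, fewer groups and fewer libraries. The fit was also run on simulated counts with changes in LPS alone and no effect of the replicate number, so that effect was not covered. Figures used matplotlib 3.10.9.

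The members, the pathway list and the tests were chosen with earlier results of these data known. Text names all 10 members, Irak1, Tlr4, Nfkb1, Tnip2 and Ikbke, up to 3 called pathway genes per role with the largest changes, and the 3 genes closest in pattern to Map3k8, Irak2 and Ticam1. Mapk9, Cyld, Map2k1, Map2k2, Mapk3 and genes that overlap members were named after their values were seen. The values of 1 gene of the pathway list are not reported here.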

Additional observations from a re-analysis of the deposited data

How the results depend on the processing

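With the replicate block 4714 genes were called in LPS against CON, 5109 in SUR against LPS and 1302 in SUR against CON (2069, 1943 and 48 without it), the pathway list gave 25, 28 and 8 calls (15, 14 and 0 without it), and the 10 adaptor and kinase genes gave 3 in SUR against CON (1 without it). Among these 10 genes the block changed the calls of Irak4 and Tbk1 in LPS against CON and of Irak2 and Myd88 in SUR against CON, and no other. With only the libraries numbered 2 and 3 the totals were 3415, 3391 and 587, the pathway list gave 9 in SUR against CON, and the 10 genes gave 3. With only the compared groups in the fit, the 10 genes gave 4 calls in LPS against CON (7 with all groups) and 0 in SUR against CON, where 4 genes in all were called. DESeq2 called 259 genes in SUR against CON and 3 of the pathway list. Leaving out each library in turn gave 3 to 8 calls of the 10 genes in LPS against CON and 0 to 1 in SUR against CON. The pathway list then gave 11 to 15 calls in LPS against CON, 8 to 17 in SUR against LPS and 0 to 2 in SUR against CON, and all genes gave 1379 to 2075, 1208 to 2054 and 0 to 168. Total calls of LPS against CON were 1379 without CON 3, and those of SUR against LPS were 1208 without SUR 2 and 1255 without SUR 3. Those of SUR against CON were 168 without CON 1, 0 without CON 2, 4 without CON 3, 9 without LPS 2, 12 without LPS 3, 28 without SUR 1, 6 without SUR 2 and 5 without SUR 3. The median log2 difference of the 10 genes in SUR against LPS, -0.26, was -0.17 with upper-quartile scaling, -0.13 on FPKM and -0.35 to -0.21 without single libraries.

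Upper-quartile scaling gave 765 rises and 1709 falls in LPS against CON (1013 and 1056 with TMM) and 1595 rises and 616 falls in SUR against LPS (1048 and 895 with TMM). FPKM moved the median gene by -0.137 in LPS against CON and 0.138 in SUR against LPS relative to TMM, on the log2 scale; with either scaling Irak3 and Traf6 lost their calls in LPS against CON. Relative to the median gene the FPKM changes of Irak3 (0.25) and Traf6 (0.24) are larger by that shift. No called result reversed; the uncalled SUR against CON differences of Tirap, Irak3, Irak4, Ticam1 and Tbk1 changed sign in 2 to 4 of the 18 alternatives. The cause of these differences was not tested. Map3k8 had 67 to 382 counts a library, which limits the precision of its values.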

Other observations

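Myd88, Traf6, Ticam1 and Tbk1 were highest in library 1 of each of the 3 groups, and Irak4 was lowest in library 1 of each, so that 4 and 1 of the 10 genes kept that place in SUR, LPS and CON alike. Over all 11281 tested genes 27.7% were highest and 25.8% lowest in library 1 of every group, so the count is not particular to these genes. The other 5 genes did not keep a place. Irak2, Irak3, Tirap and Map3k8 were highest in library 1 within CON but not within SUR or LPS.

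The deposited table gives a strand for each gene that differs from GENCODE M21 for 1640 of 14130 genes matched by symbol (11.6%), among them 2 of the 10 genes, Tirap and Irak3; strands given here are those of RefSeq and GENCODE.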
